A study of Mus musculus with 2 samples.

Results

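Chromatin contacts of the Tcfcp2l1 promoter were followed in wild-type mouse limbs. The viewpoint was the bin that holds the annotated start of Tcfcp2l1, and its contacts were counted against every other bin from position 120180001 of chromosome 1 upward. Tcfcp2l1 was 1 of 25 protein-coding genes in the map, and its start fell into 1 of 475 bins of 10 kb. The data came from capture Hi-C, in which fixed chromatin is cut, religated and enriched for 1 chosen genomic region, so that each sequenced read pair records a contact between 2 fragments. Both samples were forelimbs and hindlimbs of wild-type embryos of stage E10.5, fixed in 2% paraformaldehyde and cut with DpnII. Neither the strain nor the number of embryos is given in the sources used here, and both titles carry replicate number 2. The samples were deposited merged into 1 map of 6484654 read pairs, so no replicate error can be given, and each 95% interval below covers counting error only. Contact maps hold no expression values, so the labelled tissue was not checked against marker genes.

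Tcfcp2l1, named Tfcp2l1 in current RefSeq, encodes a transcription factor of the CP2 and grainyhead family that is best known from embryonic stem cells and from kidney and other epithelia. Its neighbour at lower coordinates is Clasp1, which encodes a protein that binds the growing ends of microtubules. Its neighbour at higher coordinates is Gli2, which encodes a zinc finger transcription factor that carries Hedgehog signals, a pathway used in limb patterning. Promoters contact other sequence mostly within the same topologically associating domain, a stretch of chromatin whose ends, called boundaries, are often occupied by the protein CTCF. How far the Tcfcp2l1 promoter contacted the side of Clasp1 and the side of Gli2 was the question here.

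On the mm9 build, Tcfcp2l1 (ENSMUSG00000026380.9) occupies positions 120524522 to 120581744 of chromosome 1, plus strand. Clasp1 (120285635 to 120506009, plus strand) ends 18.5 kb below that start, and Gli2 (120730709 to 120950196, minus strand) ends 149 kb beyond the end of Tcfcp2l1. The 250 bases before the Tcfcp2l1 start, chr1:120524272-120524521 on the plus strand of mm9, are shown because they are the centre of the viewpoint, with CG dinucleotides in capitals.
Tcfcp2l1 upstream: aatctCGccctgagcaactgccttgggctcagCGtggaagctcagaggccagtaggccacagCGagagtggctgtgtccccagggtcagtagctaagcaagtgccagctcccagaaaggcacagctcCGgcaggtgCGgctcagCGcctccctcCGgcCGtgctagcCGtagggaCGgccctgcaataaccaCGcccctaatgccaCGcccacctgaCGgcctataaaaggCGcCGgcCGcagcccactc
They contained 16 CG dinucleotides, against a median of 11.5 and a range of 0 to 36 before the other 24 gene starts, and had a GC content of 65.2%. They held no DpnII site (GATC). The DpnII fragment with the start was 654 bases long, from 120524051 to 120524704.

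The 10 kb viewpoint bin, 120520001 to 120530000, had 23591 read pairs (95% interval 23291 to 23894), close to the median of 22376 over all bins. Of these, 8333 lay within the bin, 169 went to bins below the limit of 120180001, and 15089 went to the 421 partner bins. The share within the bin was 35.3%, against a median of 21.6%. The 2 bins of 5 kb that make up the viewpoint differed in this respect. The bin with the start, 120520001 to 120525000, had 9608 read pairs, of which 354 (3.68%) were internal. The bin above it, 120525001 to 120530000, had 14334 read pairs, of which 7628 (53.2%) were internal, a share exceeded by 0.592% of the 5 kb bins. They held 7 and 6 DpnII sites, where the median 5 kb bin held 12.

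KR values are read pairs balanced so that bins become comparable. The expected count of a partner bin took the mean KR value at its distance and undid the balancing for the viewpoint and the partner, and contact strength is given as observed over expected (O/E). Balancing gives every bin the same total, internal pairs included. The sum of all partner bins was 0.887 times expected with 10 kb bins and 1.18 times expected with 5 kb bins, so the level of every O/E value depended on the bin size. Values relative to that sum are therefore added for the main stretches. Contrasts between stretches seen from the same bin do not depend on this level.

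**Figure D1:**
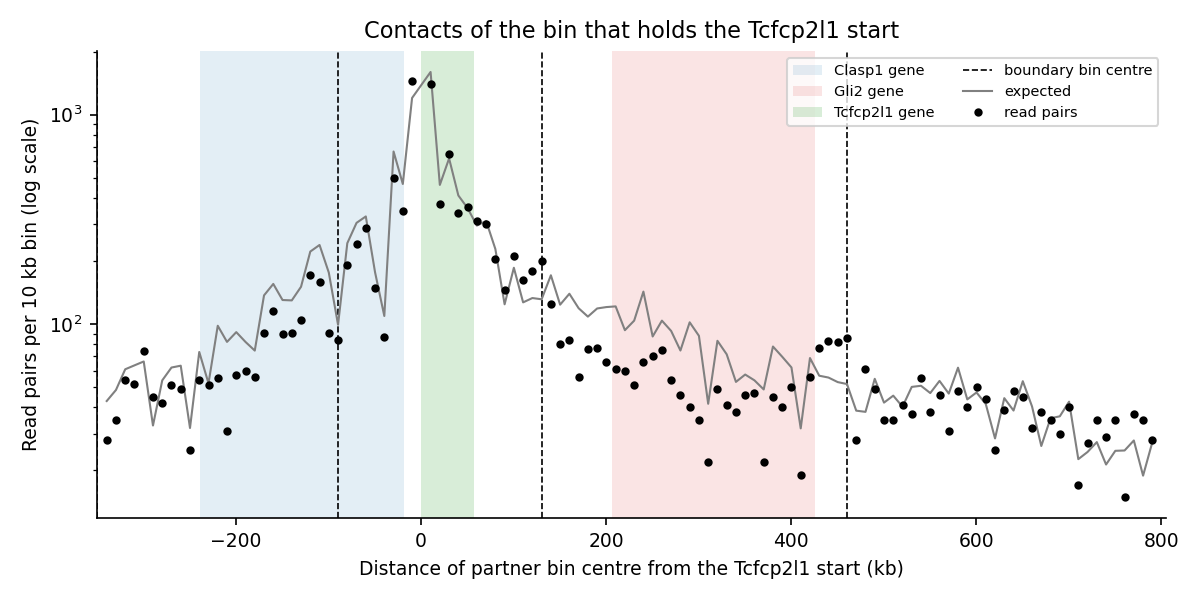
Read pairs between the Tcfcp2l1 start bin and each 10 kb partner bin (points, log scale) against distance from the start in kb, with the expected count as a grey line. On the right, counts rise above the expected line just before the first boundary, drop below it through Gli2, and return above it beside the Gli2 start, where 4 bins hold 77 to 86 read pairs.

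Towards Clasp1 and towards Gli2, the Tcfcp2l1 start bin had about equal contacts within 340 kb with 10 kb bins. This range held all of Clasp1 but ended inside Gli2, and left out the Gli2 start, 426 kb away. Within 340 kb, the distance that both sides held, 6115 of 11182 read pairs went to the higher side. This share of 54.7% (Wilson 95% interval 53.8 to 55.6%) held the expected 54.3%. O/E was 0.843 (0.820 to 0.866) on the side of Clasp1 and 0.856 (0.835 to 0.878) on the side of Gli2, a ratio of 1.02 (0.979 to 1.05). Among the 354 bins with 340 kb on both sides, this ratio ran from 0.329 to 2.12 with a median of 1.01. With 5 kb bins the ratio was 0.858 (0.818 to 0.899), lower on the side of Gli2. It was 1.18 (1.15 to 1.21) with 1 more bin on each side of the viewpoint and 1.21 (1.16 to 1.25) with raw means without balancing, higher on that side, so whether the sides were equal depended on the setting.

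The order of the sides differed between ranges of distance. The following distance ranges were chosen after the profile had been seen. At 100 to 130 kb, 755 read pairs went to the higher side, O/E 1.31 (1.22 to 1.41), and 526 to the lower side, O/E 0.668 (0.612 to 0.728). At 280 to 340 kb the order was the other way, with 271 read pairs and an O/E of 0.527 (0.466 to 0.594) on the higher side, and 330 read pairs and an O/E of 0.895 (0.801 to 0.997) on the lower side. Over 50 to 130 kb the O/E of the higher side was 1.44 times that of the lower side (1.35 to 1.54), and 1.35 times (1.23 to 1.48) with 5 kb bins. At 140 kb or more it was 0.796 times (0.735 to 0.862), and 0.831 times (0.749 to 0.922) with 5 kb bins. Raw means without balancing turned this last ratio to 1.05 (0.972 to 1.14), and left that over 50 to 130 kb at 1.41 (1.32 to 1.51). Without the near bins, at 50 kb or more, the bin sizes gave the same direction, and the ratio was 1.10 (1.04 to 1.16) with 10 kb bins and 1.09 (1.02 to 1.16) with 5 kb bins. The adjacent bin below, 120510001, had 1449 read pairs and an O/E of 1.21, and the adjacent bin above, 120530001, had 1400 read pairs and an O/E of 0.876.

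**Figure D2:**
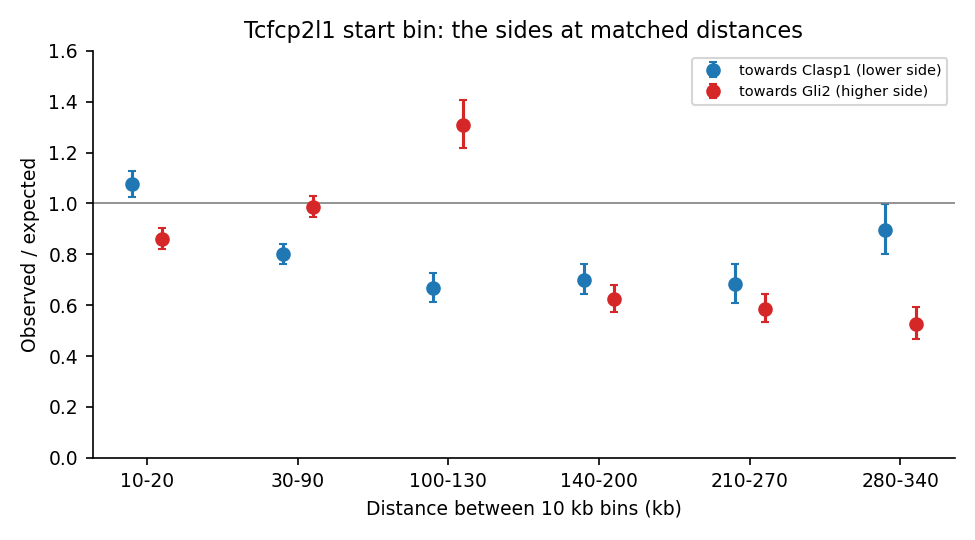
O/E of the Tcfcp2l1 start bin in 6 ranges of distance (kb between 10 kb bins), for the side of Clasp1 (blue) and of Gli2 (red), with exact Poisson 95% intervals. The higher side stands above the lower side at 30 to 130 kb and below it at 10 to 20 kb and from 140 kb on.

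On the lower side, the Tcfcp2l1 start bin had fewer contacts with the Clasp1 gene than expected at 10 kb, but not at 5 kb. The 22 bins of Clasp1 beyond 20 kb held 2818 read pairs where 3819 were expected, an O/E of 0.738 (0.711 to 0.766). All 22 lay under 1, from 0.377 to 0.979. At 5 kb, 17 of 42 bins lay under 1 and 25 over 1. The Clasp1 start bin, 239 kb away, had 54 read pairs where 73.6 were expected, an O/E of 0.734 (0.551 to 0.958), and this interval held the value of the whole gene. At 5 kb the start bin was at 0.985 (0.574 to 1.58), not below 1. A boundary lay within Clasp1, in the bin 120430001 to 120440000. Beyond it, the first part of Clasp1 had an O/E of 0.675 (0.638 to 0.713), and on the near side the last part had 0.797 (0.757 to 0.839), a ratio of 0.846 (0.785 to 0.913). Raw means without balancing gave a ratio of 0.944 (0.875 to 1.02), whose interval held 1. At the 5 kb size the Clasp1 gene had an O/E of 1.09 (1.04 to 1.14), above 1. Relative to all contacts of the viewpoint it was 0.831 (0.801 to 0.863) with 10 kb bins and 0.920 (0.878 to 0.964) with 5 kb bins, below 1 at both sizes.

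Inside its own domain, from 120440001 to 120650000, the Tcfcp2l1 start bin placed 52.3% (51.5 to 53.1%) of its contacts, where 49.1% were expected. At 5 kb, where the domain ran from 120405001 to 120665000, the share was 58.1% against 58.4%, so no excess was seen at that size. With a boundary window of 250 kb the domain started at 120180001, and its share of 64.4% (63.6 to 65.1%) held the expected 63.9%. The 10 kb domain held the last part of Clasp1, all of Tcfcp2l1 and 68.3 kb of sequence between Tcfcp2l1 and the boundary above it, and Tcfcp2l1 was its only protein-coding start. Its own gene beyond 120540001 was contacted at an O/E of 0.951 (0.910 to 0.993). The sequence between the gene and the boundary, which overlapped no protein-coding gene, was at 1.09 (1.03 to 1.15). The 5 kb bins gave 1.30 (1.22 to 1.39) for the gene and 1.53 (1.42 to 1.65) for this sequence. Both stretches lay above 1 at both bin sizes when taken relative to all contacts of the viewpoint. The gene was then at 1.07 (1.03 to 1.12) with 10 kb bins and 1.10 (1.03 to 1.17) with 5 kb bins. The sequence up to the boundary was then at 1.22 with 10 kb bins and 1.29 with 5 kb bins.

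The contacts increased relative to expected up to the boundary and then dropped. The boundary was called from the same map with a window that reaches the viewpoint, so the contacts described here entered the call, and the drop is a description. The 4 bins up to and including the boundary bin 120650001 to 120660000 had 211, 163, 180 and 201 read pairs, and O/E values of 1.14, 1.28, 1.35 and 1.53 in order of position. The next 4 bins had 124, 80, 84 and 56 read pairs, with O/E values of 0.725, 0.647, 0.602 and 0.471. With 10 kb bins, no bin of the second set reached the lowest O/E of the first. In sum, O/E went from 1.31 (1.22 to 1.41) before the drop to 0.622 (0.558 to 0.691) after it, a ratio of 0.475 (0.417 to 0.541). With 5 kb bins O/E went from 1.80 (1.64 to 1.98) to 0.984 (0.858 to 1.12), an interval that holds 1. Relative to all contacts of the viewpoint, the stretch after the drop was at 0.701 (0.629 to 0.779) with 10 kb bins. With 5 kb bins it was at 0.833 (0.727 to 0.951). The ratio at 5 kb was 0.546 (0.462 to 0.644), but the bin values of the 2 stretches overlapped. The highest O/E of a 5 kb bin after the drop was 1.502, above the lowest before it, 1.382.

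Gli2 was contacted less than expected along its gene. More contacts than expected lay in a stretch from its start bin to the next boundary, with the highest O/E at the boundary bin. The 22 bins of the Gli2 gene below its start bin held 1033 read pairs where 1730 were expected, an O/E of 0.597 (0.561 to 0.635). All 22 lay under 1, from 0.392 to 0.873. At 5 kb the same stretch was at 0.844 (0.778 to 0.915), and of its 44 bins 32 lay under 1 and 12 over 1, up to 1.78. The bin of the Gli2 start, 120950001 to 120960000, lies 426 kb from the Tcfcp2l1 start and is mostly sequence upstream of Gli2, since Gli2 is read from the minus strand. It had 77 read pairs where 56.7 were expected, an O/E of 1.36 (1.07 to 1.70). The next bins had 83, 82 and 86 read pairs, with O/E values of 1.49, 1.55 and 1.66, up to the boundary bin 120980001 to 120990000. The bin just inside Gli2, 120940001, had 56 read pairs and an O/E of 0.814, and the bin beyond the boundary, 120990001, had 28 and 0.726. All 4 bins from the Gli2 start to the boundary lay above 1. The end of this raised stretch was not sharp: the second bin beyond the boundary, 121000001, had 61 read pairs and an O/E of 1.602 (1.23 to 2.06). The 4 bins beyond the boundary were at 0.997 (0.854 to 1.16) in sum, and at 1.55 (1.27 to 1.87) with 5 kb bins, where 7 of 8 bins lay above 1. They were 0.659 times (0.545 to 0.794) the stretch before them, and 0.718 times (0.563 to 0.913) at 5 kb.

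These 4 bins together had 328 read pairs, an O/E of 1.51 (1.35 to 1.69), which was 2.53 times that of the rest of Gli2 (2.23 to 2.87). They were chosen after the profile had been seen. Seen from the 5 kb bin of the Tcfcp2l1 start alone, the same stretch had 191 read pairs and an O/E of 2.16 (1.86 to 2.49), again 2.56 times the rest of Gli2 (2.16 to 3.01). Seen from the 5 kb bin above it, which had the large internal share, it had 137 read pairs and an O/E of 1.10 (0.924 to 1.30), and the ratio was 2.54. The levels from these 5 kb bins differed, while the ratio stayed close. The drop at the boundary above Tcfcp2l1 had a ratio of 0.416 from the upper of them. The Gli2 gene in all, start bin included, had an O/E of 0.621 (0.585 to 0.659), or 0.700 (0.660 to 0.743) relative to all contacts. With 5 kb bins these were 0.864 (0.797 to 0.934) and 0.731 (0.675 to 0.791). Relative to Clasp1, the Gli2 gene was contacted 0.842 times as strongly (0.785 to 0.903) after correction for distance and balancing, and 0.795 times (0.724 to 0.871) with 5 kb bins. This difference was lost when expected values came from the median KR value per distance, with a ratio of 0.939 (0.876 to 1.01), or from raw means without balancing, with 0.960 (0.895 to 1.03).

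**Figure D3:**
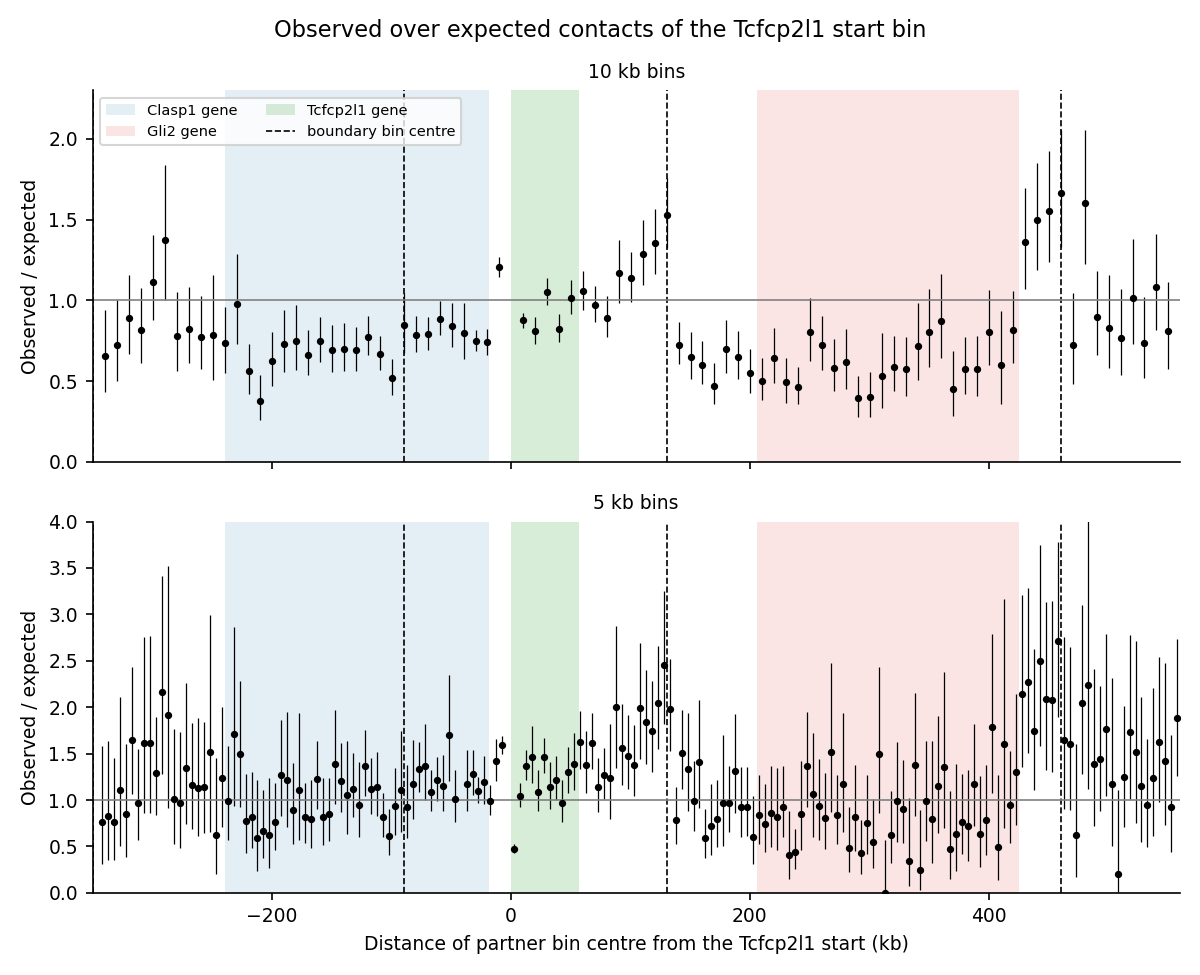
O/E of the Tcfcp2l1 start bin for each 10 kb (top) and 5 kb (bottom) partner bin against distance from the start in kb, with exact Poisson 95% intervals. Shading marks the Clasp1, Tcfcp2l1 and Gli2 genes and dashed lines the boundary bins. At both bin sizes the values climb towards the boundary above Tcfcp2l1, fall through Gli2 and are high again between the Gli2 start and the next boundary.

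The bins of the boundaries were examined for the 12-letter motif CCANNAGNNGGC, a simplified form of the sequence that CTCF binds, on both strands. It occurred in 46.0% of the 422 bins of 10 kb, so a match alone is common, and 35.7% of its 272 matches were 1 and the same word. The viewpoint bin held no match. Of the 10 boundary bins from the limit upward, 4 held no match, among them 120430001, the lower boundary of the Tcfcp2l1 domain, another 4 held 1, and 2 held 2. Of all bins, 13.98% held 2 or more. The 2 boundary bins with 2 matches were those above Tcfcp2l1 and above Gli2, and their matches are shown with 14 bases on each side, the motif in capitals and read 5′ to 3′ on the strand given. In the bin 120650001 these were chr1:120653287-120653326 on the plus strand and chr1:120656326-120656365 on the minus strand. In the bin 120980001 they were chr1:120980411-120980450 on the minus strand and chr1:120984285-120984324 on the plus strand. The matches were read from the mm9 reference and are a description of letters, not of bound sites.
Boundary above Tcfcp2l1, plus: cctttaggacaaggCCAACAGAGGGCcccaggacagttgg
Boundary above Tcfcp2l1, minus: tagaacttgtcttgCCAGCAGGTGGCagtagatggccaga
Boundary above Gli2, minus: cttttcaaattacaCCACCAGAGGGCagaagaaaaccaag
Boundary above Gli2, plus: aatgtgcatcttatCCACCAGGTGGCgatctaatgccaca

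Of the other 24 protein-coding starts from the limit upward, 11 lay in bins with at least 10 expected read pairs. In 2 of these 11, Gli2 and Epb4.1l5, the interval lay above 1, and in 3, Clasp1 and the starts of 2900060B14Rik and Gm11102 inside it, below 1. The values of gene starts are not relative to the sum of all partner bins, which was 0.887 times expected at 10 kb and 1.18 times at 5 kb. Calls near 1 therefore depend on this level. Relative to that sum, the Clasp1 start bin was at 0.827 with 10 kb bins. Its upper bound before this scaling, 0.958, lies above 0.887, so its relative interval holds 1. The upper bounds of 2900060B14Rik and Gm11102, 0.815 and 0.849, lie below 0.887. Over all bin pairs of the map at 100 kb or more with at least 10 expected read pairs, 17.9% lay above 1 and 26.7% below 1. Among the starts other than those of Clasp1 and Gli2, the highest were Epb4.1l5, a membrane-associated protein of the band 4.1 family, with 24 read pairs and an O/E of 1.59 (1.02 to 2.37), and Tmem177, with 20 and 1.51 (0.925 to 2.34). Sctr, the secretin receptor, had 17 read pairs and an O/E of 1.23 (0.716 to 1.97). Ralb, a small GTPase, had 31 and 1.19 (0.811 to 1.70). The lowest were 2900060B14Rik at 0.664 (0.535 to 0.815), Gm11102 at 0.691 (0.556 to 0.849), Mki67ip at 0.819 (0.612 to 1.07) and Tsn, which encodes translin, at 0.888 (0.667 to 1.16). Of these 4, the first 2 had intervals clear of 1. At 5 kb those 2 were at 0.790 (0.483 to 1.22) and 0.853 (0.562 to 1.24). Intervals above 1 at 5 kb were those of Gli2 at 2.14 (1.36 to 3.21) and Tsn at 1.65 (1.07 to 2.44). Epb4.1l5 at 3.31 (1.59 to 6.09) and Tmem177 at 2.22 (1.02 to 4.22) also lay above 1, on 10 and 9 read pairs. Intervals of the other starts among the 11 held 1 at 5 kb. The remaining start, that of Inhbb, an activin and inhibin subunit, was at 1.03 (0.682 to 1.48) with 10 kb bins.

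The 13 starts with fewer expected read pairs had 2 to 21, and in 12 of them the interval contained 1. The exception, named after its value was seen, was Gm101 with 21 read pairs and an O/E of 2.16 (1.34 to 3.30). En1, the homeobox gene named in the series title, lies 1974 kb away and shared 11 read pairs with the Tcfcp2l1 start bin, an O/E of 1.69 (0.843 to 3.02). The 5 kb bins shared 5 read pairs, at 3.12 (1.01 to 7.29). A difference from expected was not detectable at this depth with 10 kb bins.

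**Figure D4:**
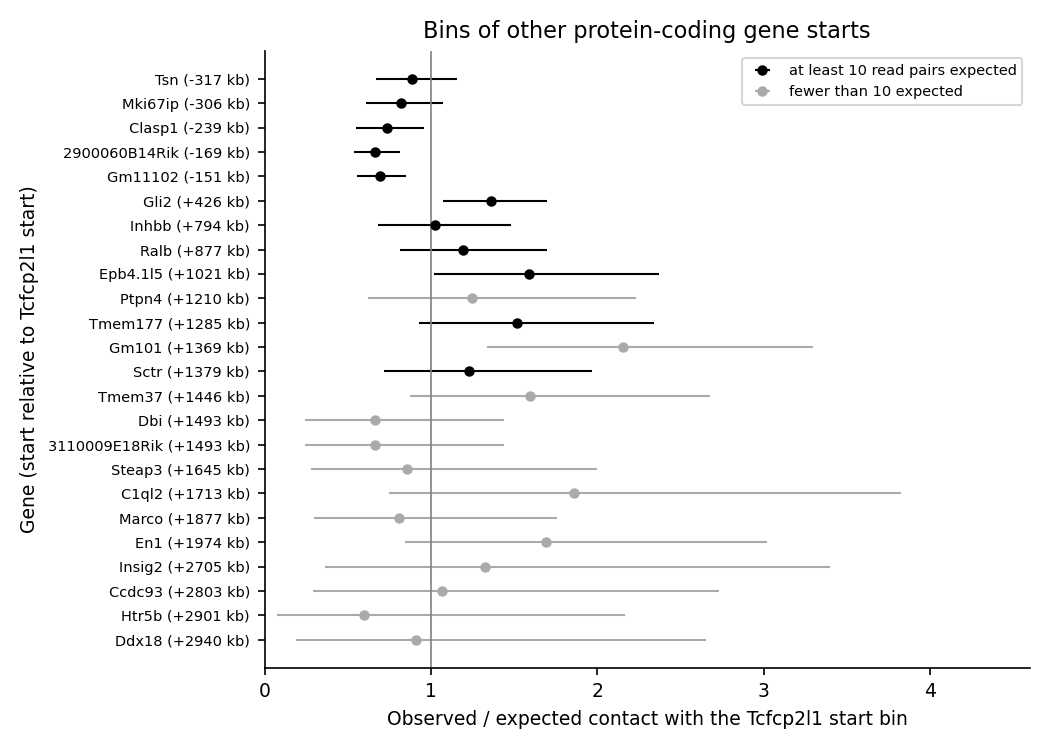
O/E between the Tcfcp2l1 start bin and the 10 kb bins of the other 24 protein-coding starts, with exact Poisson 95% intervals, in order of position (distance from the Tcfcp2l1 start in kb). Black points had at least 10 expected read pairs and grey points fewer. The starts on the lower side stand left of 1 and that of Gli2 right of it.

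Few single bins stood far from expected. At 100 kb or more, 1 of 168 partner bins with at least 10 read pairs had a lower interval bound of O/E above 1.5 (0.595%), against 5.88% of all such bin pairs in the map. This was 122020001 to 122030000 in 3110009E18Rik, 1500 kb away, with 22 read pairs where 7.08 were expected, an O/E of 3.11 (1.95 to 4.71). In the other direction, 8 of 142 bins with at least 10 expected read pairs had an upper bound below 1/1.5 (5.63%), against 6.31% in the map. Of these 8, 5 lay in Gli2, 2 in Clasp1 and 1 between the boundary and Gli2. This count depended on the setting. It was 0 of 119 with 5 kb bins and 0 with 1 more bin on each side of the viewpoint. Expected counts scaled to the contacts of the viewpoint gave 4, and the other expected values 7 to 10. With 10 kb bins and the main setting, bins with an interval above 1 numbered 15 of 142 (10.6%), and those below 1 numbered 43 (30.3%), beside the 17.9% and 26.7% of the map. All 4 bins from the Gli2 start to the boundary were among the 15. Between the boundary above Tcfcp2l1 and the Gli2 start, 24 of 29 bins were below 1 and 0 above it, and on the lower side 15 of 25 were below 1.

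With 5 kb bins, 14 of 154 partner bins (9.09%) had a lower bound above 1.5, against 8.18% of all pairs. They included 3 neighbouring bins from 120645001 to 120660000 at the boundary above Tcfcp2l1, with 56, 49 and 66 read pairs. Another 3 lay between the Gli2 start and its boundary, at 120955001, 120965001 and 120980001, with 28, 23 and 35 read pairs. A further 4 lay in Epb4.1l5 with 10 or 12 read pairs each. The share of such bins was near the background of the map at 5 kb and below it at 10 kb.

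The 6 partner bins with the highest lower bound at 30 kb or more included the boundary bins on both sides of the Gli2 domain. The bin 120980001 had 86 read pairs and an O/E of 1.66 (1.33 to 2.05), and the bin 120650001 had 201 and 1.53 (1.33 to 1.76). Of their read pairs, 49 and 115 came from the 5 kb bin with the Tcfcp2l1 start. The others, beside 122020001, were 121890001 in Gm101 with 21 read pairs and 2.16 (1.34 to 3.30), 121300001, 2.04 kb from Inhbb, with 35 and 1.85 (1.29 to 2.58), and 123250001, 20.8 kb from Insig2, with 11 and 2.51 (1.26 to 4.50). These 4 distant bins rested on 11 to 35 read pairs each.

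The pattern along Gli2 was also present from the other bins of the Tcfcp2l1 domain. Across its 21 bins as viewpoints, the O/E of the stretch from the Gli2 start to the boundary ran from 1.22 to 2.45, with a median of 1.64. The Tcfcp2l1 start bin, at 1.51, was exceeded by 13 of the other 20. Its ratio of this stretch to the rest of Gli2, 2.53, lay within the range of 1.76 to 3.21, and 4 bins were higher. The highest O/E was that of 120640001, next to the boundary above Tcfcp2l1, and the bin 120460001 inside Clasp1 had 2.36. The drop at the boundary above Tcfcp2l1 had a ratio of 0.447 to 0.584 from the 18 bins that lie below the bins compared, with 0.475 from the Tcfcp2l1 start bin. The Gli2 gene without its start was contacted less from the Tcfcp2l1 start bin (0.597) than from any of the other 20 bins, but relative to all contacts of each bin, 2 bins were lower. Whether any of these values sets the Tcfcp2l1 promoter apart was not tested, since the samples form 1 merged map.

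**Figure D5:**
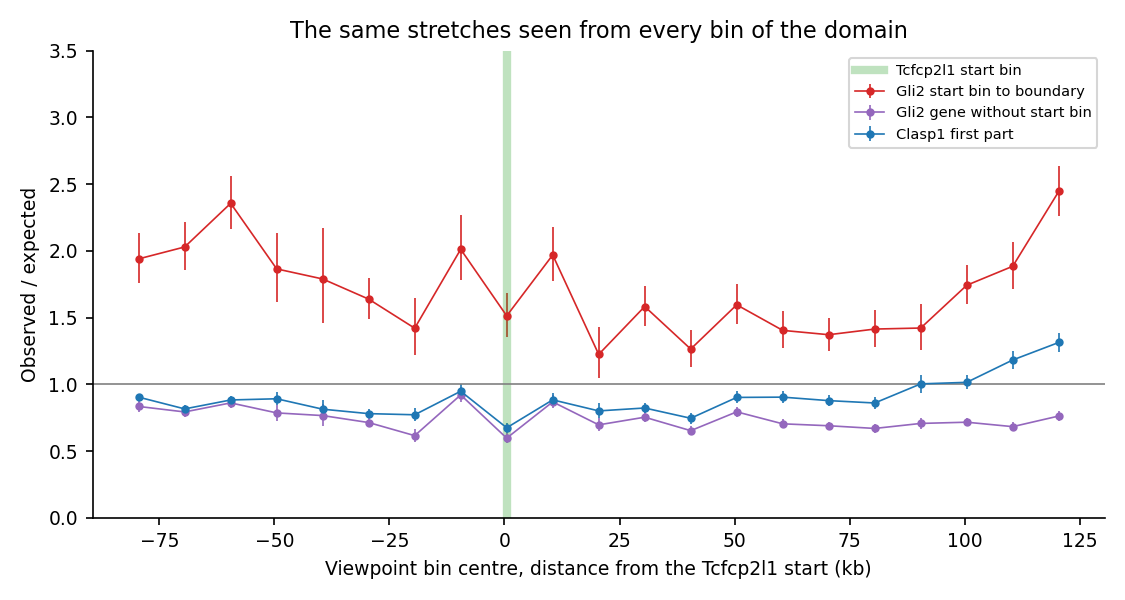
O/E of 3 stretches seen from each 10 kb bin of the domain that holds Tcfcp2l1, against the distance of that bin from the Tcfcp2l1 start in kb, with exact Poisson 95% intervals. The stretch from the Gli2 start to its boundary (red) lies above 1 from every bin, at 1.22 to 2.45, while the rest of Gli2 (purple) lies below 1 from every bin.

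The start bins of the neighbours gave other views of these stretches. From the Clasp1 start bin, the stretch from the Gli2 start to the boundary had 151 read pairs and an O/E of 1.25 (1.06 to 1.46), and the rest of Gli2 had 0.826 (0.767 to 0.889), a ratio of 1.51 against the 2.53 from Tcfcp2l1. From the Gli2 start bin, the 4 bins up to the boundary above Tcfcp2l1 had an O/E of 1.71 (1.56 to 1.87) and the 4 bins beyond it 2.84 (2.68 to 3.02), the reverse order of that seen from Tcfcp2l1. Over bins at least 50 kb from both starts, the profiles most like that of Tcfcp2l1 were those of Gm11102 (Spearman correlation 0.255 over 404 bins), Clasp1 (0.234, 404 bins) and 2900060B14Rik (0.219, 404 bins), whose starts all lie in Clasp1. These profiles share partner bins and their depth. That with Gli2 was 0.0396. Such correlations rest on sparse counts at long range and are weak.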

How the data were processed

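Capture Hi-C of 2 wild-type limb samples was analysed as 1 merged map, as deposited, and the titles of both give replicate number 2. The deposited raw counts are numbers of read pairs between bins, not normalized by the authors, and the balanced contact signal is named KR, read here as Knight-Ruiz balancing, in the deposited file names. Bowtie2 2.3.4.1, Juicer 1.7.6, SAMtools and the build mm9 are given per the submitters' processing notes, without their roles. HiCUP and a mapping quality minimum of 30 are named in the deposited file names. The total was 6484654 read pairs, with a median of 22376 per 10 kb bin. Intervals cover counting error only, not PCR duplicates, whose removal is not stated in the labels used here.

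Gene positions came from GENCODE M1 on NCBIM37, the assembly of mm9. Balancing factors were solved from the raw counts and KR values. Expected values used bin pairs with both bins from 120180001 up. Bin pairs absent from the file entered as 0, and the 1 bin lacking KR values was dropped. Boundaries were minima of the log2 mean KR value between 150 kb on each side, with a prominence of at least 0.2. Intervals are exact Poisson for counts, Wilson for shares and Clopper-Pearson for ratios, at 95%. No p-values were computed, as there is 1 map. The calculation was tested on simulated data. Python 3.11.15, numpy 2.4.6, scipy 1.17.1 and pandas 2.3.3 were used.

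Named were Tcfcp2l1, Clasp1 and Gli2, the 4 highest and 4 lowest of the other gene starts with at least 10 expected read pairs, the 6 strongest partner bins and the 3 most alike genes (log2 O/E with a pseudocount of 1). The members, lists and rules were chosen with earlier results of these data known. Alternatives varied bin size, expected value, viewpoint width, low bins, distances, boundaries and thresholds. Maps at larger bin sizes were not used here.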

Additional observations from a re-analysis of the deposited data

Results flagged for a closer look

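The Tcfcp2l1 start bin also had contacts outside the range used for the comparisons. It shared 169 read pairs (95% interval 144 to 196) with the 53 bins below 120180001, where 49 bins were under 25% of the median total. The count is above the 3 read pairs that a count of 0 allows, which says nothing of contact strength, since 463 were expected from the whole map. There are no control samples. O/E was 0.365 (0.312 to 0.424), and 12 of these bins had no read pair with the Tcfcp2l1 start bin.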

How the results depend on the processing

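With a merged map, no sample could be left out. No paired analysis was possible because the files hold 1 group in a single merged map. Of 58 alternative values, 4 are observed shares that the expected value cannot change. The other 54 were judged against counting error alone, except the counts of bins that passed the lower-bound threshold. These counts have no interval and are listed as moved where they differed from the main count. Of the 54, 16 stayed, 33 moved and 5 changed side of their reference, and the cause was not tested. The median KR value moved the expected domain share from 49.1% to 51.0%, beside the observed 52.3%. With 5 kb bins, O/E turned above 1 on the lower side (1.22), the higher side (1.04) and Clasp1 (1.09), and the own domain share turned below its expected value (58.1% against 58.4%). The share of the higher side was then 51.2% against an expected 55%, Gli2 was at 0.864, and 14 bins had a lower bound above 1.5. With 1 more bin on each side of the viewpoint, O/E turned above 1 on the higher side (1.04), and the share of that side was 58.2% against an expected 54.2%. The lower side was then at 0.880, Clasp1 at 0.879 and Gli2 at 0.800. The domain share was 42.4% against an expected 41.0%, and 6 bins passed. Expected values from the whole map gave 0.813 on the lower side, 0.825 on the higher side and 0.710 for Clasp1. The median KR value per distance gave 0.882 on the higher side, 0.698 for Gli2 and 3 bins. Raw means without balancing factors gave 0.744 and 0.897 for the lower and higher side, 0.780 for Clasp1, 0.748 for Gli2 and 6 bins. Shares of KR values were 49.7% for the higher side, against an expected 50%, and 56.8% for the domain, against an expected 53.9%. Up to 200 kb, the higher side was at 0.919, and without partners under 50 kb the lower and higher sides were at 0.753 and 0.827. A boundary window of 250 kb gave a domain share of 64.4% against an expected 63.9%. Lower bounds above 1.2 and 2 were met by 9 and 0 bins. Scaling the expected counts to the contacts of the viewpoint, chosen after seeing the data, gave 0.9497 and 0.965 for the lower and higher side, 0.831 for Clasp1, 0.700 for Gli2 and 2 bins. Of 42 values of 7 ratios between stretches or sides, added after seeing the data, 35 kept their side of 1 or, where the interval held 1, still held it. The others were the ratio of the sides at 5 kb (0.858), with the wider viewpoint (1.18) and with raw means (1.21), Gli2 over Clasp1 with the median KR value (0.939) and raw means (0.960), and, with raw means, the first over the last part of Clasp1 (0.944) and the ratio of the sides at 140 kb or more. The point value of this last ratio crossed 1, at 1.05 (0.972 to 1.14), but its interval held 1. The drop at the boundary and the Gli2 start over the rest of Gli2 were among the 35 in all 6 settings. Depth limits single-bin values: 34 of 421 partner bins had no read pair with the viewpoint.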

Other observations

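Beyond the boundary above Gli2, the contacts of the Tcfcp2l1 start bin differed between domains. The domain from 123100001 to 123470000, with the starts of Insig2, Ccdc93, Htr5b and Ddx18, had 179 read pairs and an O/E of 1.43 (1.22 to 1.65). The next domain, from 123480001 to 123750000, held no protein-coding start and had 28 read pairs where 63.3 were expected, an O/E of 0.443 (0.294 to 0.640). The last domain, from 123760001 to 124400000, held none either and was at 0.848 (0.680 to 1.05), an interval that holds 1. The domain from 121910001 to 122040000, with the starts of Tmem37, Dbi and 3110009E18Rik, had 159 read pairs and 1.41 (1.196 to 1.64). The domain from 121370001 to 121900000, with those of Ralb, Epb4.1l5, Ptpn4, Tmem177 and Gm101, had 848 and 1.12 (1.05 to 1.202).

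Other domains lay closer to expected. The domain of Steap3, C1ql2 and Marco was at 0.963 (0.855 to 1.08), that of En1 at 0.945 (0.838 to 1.06) and that of Inhbb at 0.973 (0.921 to 1.03), all with intervals that hold 1. None of the domain values is relative to the sum of all partner bins, which was 0.887 times expected. Relative to that sum each would be higher, so whether an interval holds 1 depends on this level. The lower bound of the Inhbb domain, 0.921, lies above 0.887, so its interval would then lie above 1. Those of the Steap3 and En1 domains, 0.855 and 0.838, lie below 0.887. The boundaries of all these domains were called from the same map.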
